A study of Homo sapiens with 6 samples.

Results

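Cyclins are regulatory subunits that bind cyclin-dependent kinases (CDKs) and switch them on. The 40 genes described here, of 10779 in the series, are those whose symbol is CCN followed by a letter and, for most, a digit, or CDK followed by a number, that is 21 cyclins and 19 CDKs. Of these, 35 are in the table of translational efficiency (8121 genes), 36 in the table of ribosome occupancy (9570 transcripts) and 31 in both. CCNA2, CCNE1, CCNL2 and CDK6 have a translational efficiency only, and CCNG2, CDK7, CDK10, CDK18 and CDK20 an occupancy only.

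All libraries came from HEK293 cells, a line of human embryonic kidney origin, which the labels place under 1 treatment, control siRNA. There were 3 libraries of ribosome-protected fragments (RPFs) and 3 of total RNA, numbered 1 to 3. Cells received cycloheximide, which halts elongating ribosomes, at 100 μg/ml before and during lysis, and total RNA was set aside from each lysate before RNase I digestion. The data hold no second condition, so the level of a gene was compared with that of other genes. Nothing in the labels says that the replicates were separate cultures, so that the p-values below measure only the spread between these samples.

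A CDK has little activity without its cyclin, and most cyclins that drive the cell cycle are made and destroyed once in each cycle. CDK1, CDK2, CDK4 and CDK6 and the cyclins A, B, D and E carry cells through G1, S phase and mitosis. Another branch acts in transcription: CDK7 and cyclin H in the general transcription factor TFIIH, CDK8 or CDK19 and cyclin C in the Mediator complex, CDK9 and the T cyclins in the elongation factor P-TEFb, CDK12 or CDK13 and cyclin K on RNA polymerase II, and CDK11 and the L cyclins in splicing.

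Translational efficiency, which sets the RPFs of a gene against its total RNA, spread over the cyclins and CDKs about as widely as over all genes, with an SD between genes of 1.45 on the log2 scale against 1.56. The median of the 35 was 0.342, and that of all genes was 0.385 with quartiles of 0.198 and 0.825. In the limma test against the median of all values, 15 of the 35 were higher, 17 lower and 3 (CDK17, CCNE2 and CDK11A) not called. Over all genes 89.3% were called, 44.7% higher and 44.6% lower, so the 91.4% of the cyclins and CDKs that were called is near the background. The replicates of a gene lay close together, with a median coefficient of variation of 6.17%. In the order of the 35 means, 22 of the 34 neighbouring pairs had overlapping replicate values, so neighbours in that order often cannot be ranked.

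**Figure D1:**
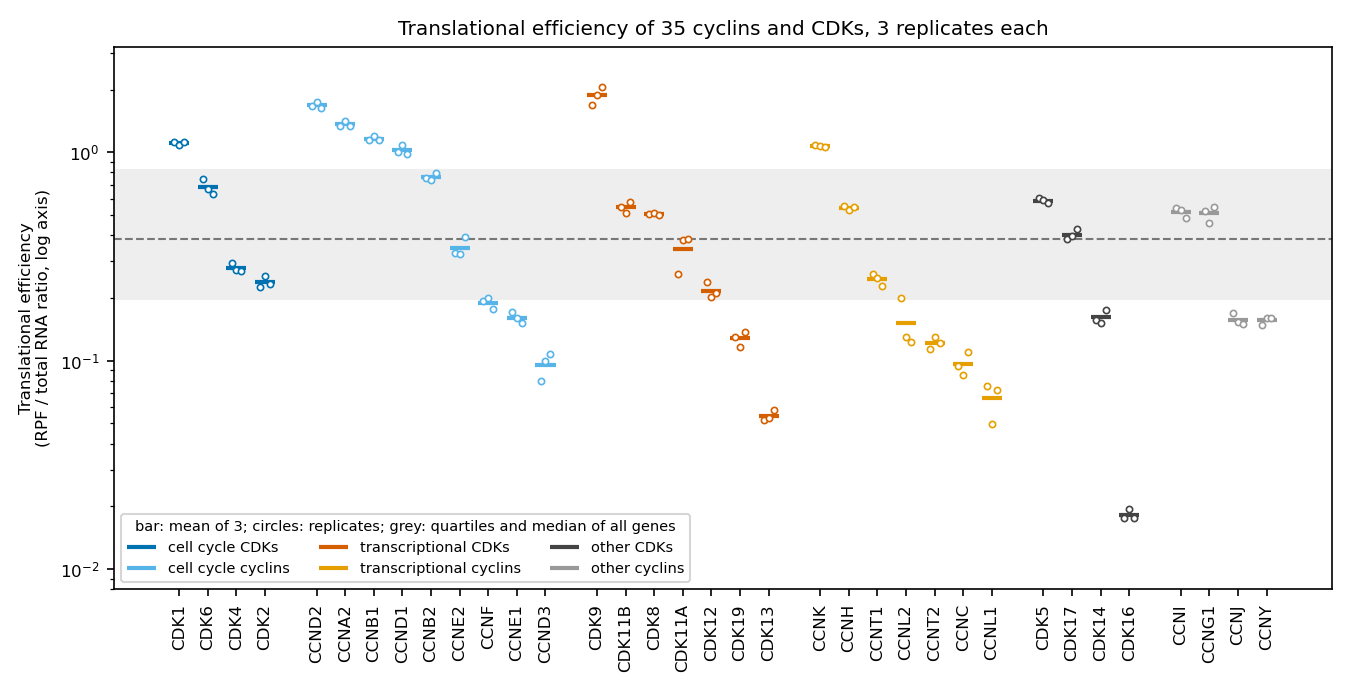
Translational efficiency (RPFs over total RNA, log axis) of the 35 cyclins and CDKs, grouped by role; circles are the 3 replicates, bars their mean, and the grey band and dashed line the quartiles and median of all genes. The means run from 0.0182 for CDK16 to 1.88 for CDK9, and each role group has genes on both sides of the median.

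Among the cell cycle CDKs, CDK1 and CDK6 were higher and CDK2 and CDK4 lower than the median of all genes. The translational efficiency of CDK1, the kinase of mitosis, was 1.12, 1.08 and 1.13 in replicates 1 to 3, or 1.11 ± 0.0266 (SD, n = 3). That of CDK2, which works with cyclins E and A in S phase, was 0.225, 0.256 and 0.234. All 3 values of CDK1 lay far above those of CDK2, and the difference within a replicate was 2.22 ± 0.13 on the log2 scale, a 4.66-fold difference. The pair of G1 kinases that bind D cyclins also lay apart: CDK4 was at 0.279 ± 0.0140 and CDK6 at 0.682 ± 0.0563 (SD, n = 3), 2.44-fold higher and with no overlap. With 3 replicates an exact sign test within pairs cannot go below p = 0.25, so differences between genes are given with their SD and without a test. Over all genes the SD between genes was 1.56 on the log2 scale, against a median SD between replicates of 0.101. A lack of overlap is therefore common and does not by itself single out a pair.

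Of the 9 cell cycle cyclins, 5 were higher (CCND2, CCNA2, CCNB1, CCND1 and CCNB2), 3 lower (CCNF, CCNE1 and CCND3) and CCNE2 was not called. CCNA2, the cyclin of S phase and G2, had values of 1.34, 1.42 and 1.34. CCNB1, the main mitotic cyclin, had 1.15, 1.19 and 1.15, and CCNB2 had 0.753, 0.740 and 0.794. CCNB1 was therefore just above its kinase CDK1 (log2 difference of CDK1 to CCNB1 -0.07 ± 0.07), and CCNB2 was below both. CCNE1 and CCNE2, the E cyclins that pair with CDK2 at the start of S phase, were at 0.160 ± 0.00945 and 0.349 ± 0.0376 (SD, n = 3), and all values of CCNE2 lay above those of CCNE1. CCNF, an F-box protein that marks other proteins for destruction and activates no CDK, was at 0.190 ± 0.0122.

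The 3 D cyclins, which join growth signals to CDK4 and CDK6, covered most of the range of the family. CCND2 had a translational efficiency of 1.67, 1.73 and 1.64 and was 2.1 ± 0.05 (SE) above the median on the log2 scale (limma, adjusted p = 2.42e-06). CCND1 had 1.00, 1.08 and 0.978. CCND3 had 0.0797, 0.0999 and 0.107 and lay 1.91 below the median (log2 difference -1.91 ± 0.09, limma, adjusted p = 1.74e-05). CCND2 thus stood 17.7-fold and CCND1 10.7-fold above CCND3, and no values overlapped between any 2 of the 3. Of the 30-mers in the CDS of CCND2, 82.2% also occur in an annotated gene that overlaps it at the same locus, and its value cannot be told apart from reads of that gene. The 18 bases around the start codon, in capitals, are shown for the 3 because they differ so widely in translational efficiency. The sequences are those of the transcripts of matching CDS length in GENCODE 44 on GRCh37, where the genes lie at chr11:69455924-69469242 (CCND1, plus strand), chr12:4378937-4414519 (CCND2, plus strand) and chr6:41902672-42018095 (CCND3, minus strand).
CCND1: gccccagccATGgaacac
CCND2: gggctggccATGgagctg
CCND3: tgcccgagtATGgagctg
All 3 have a purine 3 bases before the start codon and a G directly after it, as did most of the genes: of the 33 cyclins and CDKs whose start context was read (all matched transcripts but that of CCNE2), 25 have A or G at the first of these positions and 22 have G at the second.

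Of the 7 transcriptional CDKs measured, 3 were higher (CDK9, CDK11B and CDK8), 3 lower (CDK12, CDK19 and CDK13) and CDK11A was not called, and of the 7 transcriptional cyclins 2 were higher (CCNK and CCNH) and 5 lower. Within this branch, CDKs and their cyclins often lay far apart. CDK9 had the highest translational efficiency of the 35, at 1.69, 1.89 and 2.05, and also the largest SD (1.88 ± 0.177, SD, n = 3). Its partner CCNT1 was at 0.246 ± 0.0168, or 7.63-fold lower, and CCNT2 at 0.122 ± 0.00851. The opposite order was seen for cyclin K: CCNK was at 1.08, 1.08 and 1.06, its kinase CDK12 at 0.217 ± 0.0194 and its other kinase CDK13 at 0.0517, 0.0531 and 0.0581. CDK13 was therefore 19.8-fold below CCNK and 3.99-fold below CDK12, its closest paralog. None of these values overlapped.

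The Mediator kinases repeated this split between paralogs. CDK8 had the steadiest value of the family (0.506, 0.509 and 0.499), and CDK19, which takes its place in some Mediator complexes, was 3.95-fold lower at 0.128 ± 0.0110 (SD, n = 3). Cyclin C, the partner of both, was lower still: CCNC had 0.0946, 0.0853 and 0.110. CCNH, which with CDK7 and the assembly factor MNAT1 forms the CDK-activating kinase, was higher than the median at 0.542 ± 0.0118, and MNAT1 lay close to it at 0.602 ± 0.0146.

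CCNL2, CCNL1 and CDK11A, of the splicing branch, had the largest coefficients of variation of the 35, at 28.3%, 21.3% and 20.5%, whereas CDK11B was at 6.0%. CDK11A had 0.261, 0.38 and 0.385 and CCNL2 0.200, 0.130 and 0.123, so that replicate 1 stood apart in opposite directions. CCNL1 had 0.0759, 0.05 and 0.0726. CDK11A and CDK11B are near-identical neighbours on chromosome 1, and 69.9% of the 30-mers of the CDS of CDK11A also occur at another locus, so the values of both are uncertain. Without them 14 genes were higher and 17 lower.

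The remaining CDKs and cyclins ranged from the middle to the very bottom: CDK5, CCNI and CCNG1 were higher, CDK14, CDK16, CCNJ and CCNY lower, and CDK17 was not called. CDK5, a kinase of neurons that is activated by proteins other than cyclins, was at 0.587 ± 0.0147 (SD, n = 3). CDK14, which binds cyclin Y at the membrane, was at 0.162 ± 0.0127 and CCNY itself at 0.156 ± 0.00705. CCNI and CCNG1, cyclins without a settled kinase, were higher than the median (0.516 and 0.510) and CCNJ was lower (0.157).

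CDK16 (chrX:47077259-47089396, plus strand), a PCTAIRE kinase that is also activated by cyclin Y, had the lowest translational efficiency of the 35, at 0.0176, 0.0194 and 0.0176. It was 3.80 below the median (log2 difference -3.80 ± 0.05 SE, limma, adjusted p = 1.04e-06) and at percentile 0.0431 of all genes. Its paralog CDK17 was at 0.384, 0.395 and 0.430, 22.2-fold higher and the widest gap among the 13 paralog pairs. The start codons, in capitals, are shown because these paralogs lay furthest apart.
CDK16: ccgatcgccATGgatcgg
CDK17: attgataggATGaaaaaa
Both have a purine 3 bases before the start codon, and CDK16 alone has G directly after it.

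**Figure D2:**
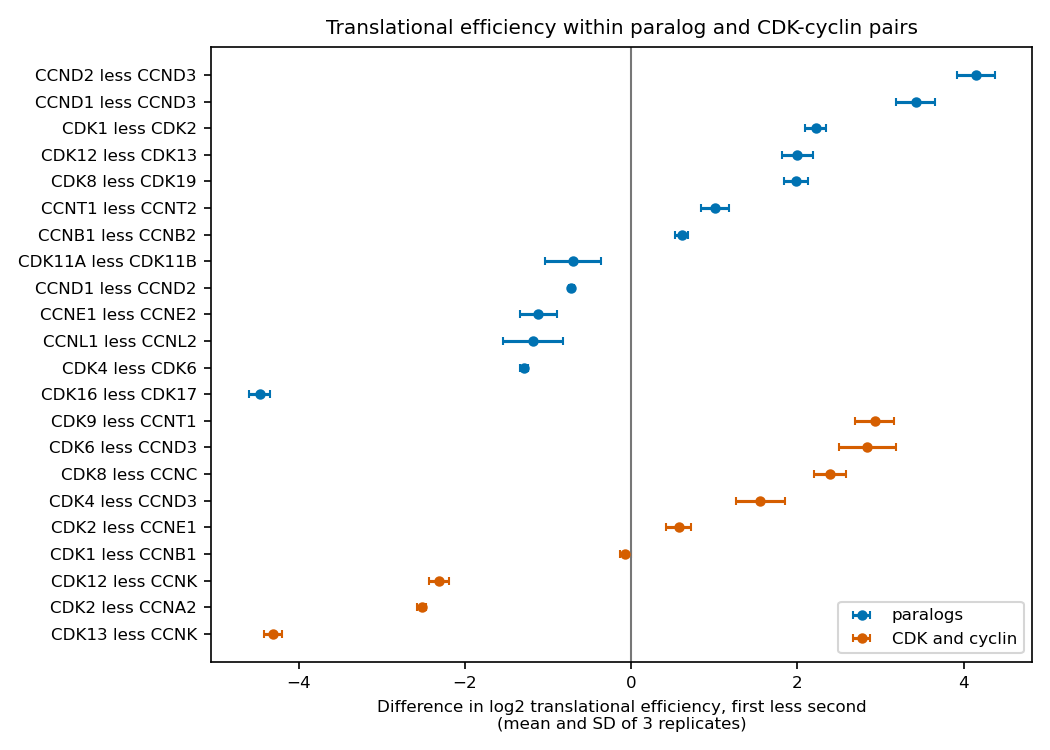
Difference in log2 translational efficiency between the 2 genes of each pair (mean and SD of 3 replicates), for 13 pairs of paralogs in blue and 9 pairs of a CDK and its cyclin in orange. The largest gap is CDK16 against CDK17 (-4.47), the smallest CDK1 against CCNB1 (-0.07), and in all 22 pairs the replicate values of the 2 genes did not overlap. The share of all gene pairs without overlap was not counted. Since genes differ far more than replicates (SD of 1.56 against a median of 0.101), it is likely to be high.

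Other genes of the pathway (CDK inhibitors, CDC25 phosphatases, inhibitory kinases, subunits and destruction factors) were also found on both sides of the median. Of 31 in the table, 9 were higher (29.0%, against 44.7% of all genes), 18 lower (58.1%, against 44.6%) and 4 not called, and their median translational efficiency was 0.257. Whether these shares differ from those of all genes was not tested. The highest were CKS2 (8.41, 8.26 and 7.75) and CKS1B (5.97, 5.96 and 6.47), small proteins that dock CDKs to phosphorylated substrates, followed by HEXIM1, the inhibitor of CDK9, at 1.72 ± 0.0671 (SD, n = 3). These lay above or near the highest of the cyclins and CDKs themselves. The lowest were AMBRA1 (0.0593 ± 0.00187), a ubiquitin ligase factor that directs D cyclins to destruction, PKMYT1 (0.0629 ± 0.00704), which inhibits CDK1, and CDK5RAP3 (0.119 ± 0.0238). WEE1, the other inhibitory kinase, was at 0.627 ± 0.0298, far above PKMYT1 and with no overlap.

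Ribosome occupancy, the second deposited measure, is the number of in-frame RPFs at each codon, normalized for library size and divided by the mRNA level (TPM, which counts transcripts relative to all others), with the replicates combined by the authors. In each of the 36 transcripts all values could be split into whole reads of 3 unnamed replicates, so the depth and the spread are known. The 36 transcripts held 214723 in-frame reads, of which the CDS had 99.0%, the 5′UTR 0.979% and the 3′UTR 0.0480%. CDS reads per transcript ranged from 130 (CDK20) to 46736 (CCNB1) with a median of 3538, and values of CDK20, CDK18 (231 reads), CDK10 (365) and CCNG2 (417) rest on the fewest.

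The mean occupancy per codon of the CDS had a median of 0.0471 over the cyclins and CDKs and 0.0450 over all transcripts, and 18 of the 36 lay on each side. CDK16 was again the lowest, at 0.00456. The worth of a read, which is inversely related to TPM, puts its mRNA at 10.3 times that of the median transcript. This is among the 3 highest of the family beside CCNG1 (11.5) and CCNB1 (10.6), so CDK16 combined a high mRNA level with low occupancy. The same TPM divides the occupancy, so the mRNA level and the occupancy are not independent. CDK10 (0.0132) and CCNF (0.0178) were the next lowest in occupancy. The highest were CDK11A (0.391), CCNK (0.190) and CDK11B (0.165), all with mRNA below the median transcript (0.226, 0.272 and 0.448 times). The values of CDK11A and CDK11B cannot be taken as those of separate genes: aligned at the stop codon, they held the same number of reads at 292 of the 321 codons with a read in either (91.0%).

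The 2 measures ranked the genes in a similar order. Over the 31 cyclins and CDKs in both tables the Spearman coefficient between translational efficiency and CDS occupancy was 0.769, and over all 6884 genes in both it was 0.688. Both measures divide RPFs of the same libraries by the same total RNA, so some relation is built in, and genes are not replicates. CDK11A stood furthest apart, at percentile 45.4 of translational efficiency and 98.6 of occupancy. CCNT2 was also far higher in occupancy (percentile 55.5 against 10.99), whereas CCNG1 was lower (34.8 against 60.5). Translational efficiency tended to be lower in longer CDSs, with a Spearman coefficient of -0.267 over these 31 and -0.262 over the 6884 genes. No adjustment for CDS length was made here.

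**Figure D3:**
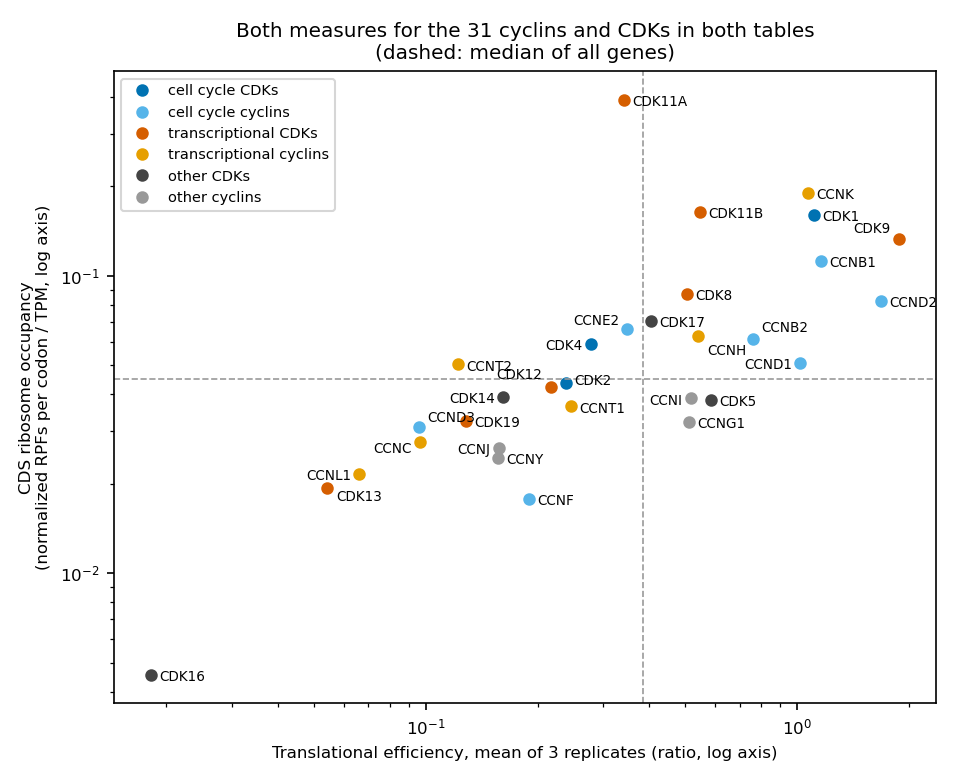
Translational efficiency (mean of 3 replicates) against mean CDS occupancy per codon (normalized RPFs divided by TPM), both on log axes, for the 31 cyclins and CDKs in both tables; dashed lines are the medians of all genes. CDK16 lies alone at the bottom left (0.0182 and 0.00456), and CDK11A lies above the trend (0.342 and 0.391).

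Along the CDS, ribosomes of most cyclins and CDKs were denser at the beginning than at the end. The log2 ratio of the first to the last 75 codons had a median of 0.50, against -0.02 over all transcripts, and 24 of the 36 lay above the latter. It was above 0 in all 3 replicates of 22 genes, below 0 in all 3 of 10 and of mixed sign in 4. The same count over all transcripts was not made, and CDK11A and CDK11B, which cannot be taken as separate, both enter it. With the median over the codons of a window in place of the mean, the ratio turned to -0.10, so the direction depends on how a window is summarized.

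CCNK had the steepest fall, with a log2 ratio of 4.56 (3.92 to 5.10 over the replicates). Of 4 equal parts of its CDS, the first held 33.5% of the occupancy, the next 51.8%, and the last 2 held 10.0% and 4.64%. CDK11A (2.80) and CDK11B (2.17), with the same read number at most codons, followed. The opposite end of the range was CDK13, with a log2 ratio of -2.85 (-3.75 to -2.46) and only 4.0% of the occupancy in the first of 4 equal parts, before CCNJ (-2.1) and CCNL1 (-1.51). CDK12 did not share this gap: its first part held 24.8%.

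**Figure D4:**
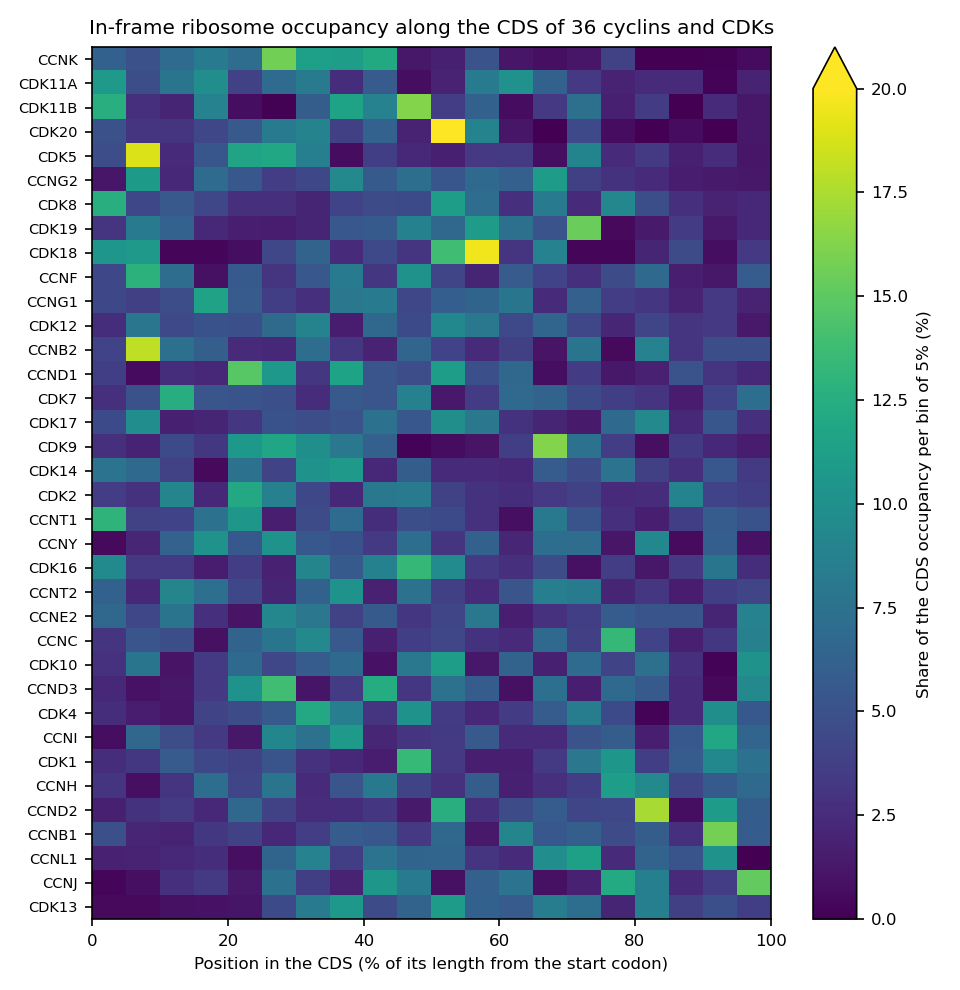
Share of the CDS occupancy in each 5% of the CDS length, from the start codon at the left to the stop codon at the right, for 36 cyclins and CDKs ordered by their log2 ratio of the first to the last 75 codons. CCNK at the top holds 33.5% and 51.8% of its occupancy in the first 2 of 4 equal parts, and CDK13 at the bottom holds 4.0% in the first.

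Single codons held a modest share of the signal. The highest codon of a gene held a median of 3.96% of its CDS occupancy, against 4.96% over all transcripts. The largest shares were in CDK20 (13.7%, 17 reads), CDK18 (9.07%, 19 reads) and CCND2 (8.83%, 964 reads), and only the last rests on many reads. Below are the highest codons of the 8 genes with the most reads there, with the codon of the ribosomal P site, taken from the 13 nt offset of the authors, in capitals and 12 bases on each side.
CCNB1: aagcacatgactGTCaagaacaagtat
CDK1: ctcttgattgatGACaaaggaacaatt
CCND2: gtgctggggaagTTGaagtggaacctg
CCNB2: aggcgaactgttTTAgaagaaattgga
CDK4: ccagccgaaacgATCaaggatctgatg
CCND1: tacctggaccgcTTCctgtcgctggag
CCNG1: atgactgcaagaCTAagggactttgaa
CDK9: aacgtggacaacTATgagctgtacgaa
These were codons 400 (CCNB1, 1276 reads), 138 (CDK1, 1205 reads), 147 (CCND2), 35 (CCNB2, 686 reads), 117 (CDK4, 522 reads), 88 (CCND1, 402 reads), 51 (CCNG1, 355 reads) and 259 (CDK9, 288 reads), counted from the start codon. The 8 codons differ from each other. In CCNE2 the start codon itself was the highest, with 173 reads.

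In 4 CDKs the highest codon of the whole CDS fell within the same part of the kinase fold, the catalytic loop, which holds the histidine, arginine and aspartate that mark active kinases. The loop was taken as 8 codons from that histidine in the 16 CDKs with a matched transcript. The peak was codon 4 of the loop in CDK12 and CDK2, codon 8 in CDK18 (19 reads) and codon 2 in CDK20 (17 reads). The loop was looked at after these peaks had been seen. These 4 CDKs are included in the values below and raise them, as their loops stood at 4.14 (CDK12), 2.66 (CDK2), 9.40 (CDK18) and 9.15 (CDK20) times the mean. The values are therefore a description, and their contrast with other windows is no test of the loop. Occupancy over the loop was above the gene's own CDS mean in 12 of the 16, in 9 of them in every replicate, with a median of 2.00 times the mean. For comparison, a median of 34.4% of all windows of 8 codons in these CDSs lay above the mean, and the typical window stood at 0.680 times. In 9 of the 16 the highest codon of the loop was the fourth, that of the leucine, isoleucine or methionine after the aspartate. The loops of the 11 CDKs named below are shown with their highest codon in capitals.
CDK18: caccgggacctgaagccccagAAC
CDK20: catCGGgacctgaaacctgccaac
CDK12: catcgggatATTaagtgttctaac
CDK9: catagggacATGaaggctgctaat
CDK4: caccgagatctgaagCCAgagaac
CDK2: caccgagacCTTaaacctcagaat
CDK17: catcgagacTTGaaaccacagaac
CDK5: CACagggacctgaagccccagaac
CDK8: cacagaGATttgaaacctgctaat
CDK1: cacagagacTTAaaacctcaaaat
CDK13: CATagagatattaaatgttccaat
In CDK12 (chr17:37617739-37723812, plus strand) the fourth codon held 121 reads and the loop stood at 4.14 times the mean (3.61 to 4.50 over the replicates). In CDK2 (chr12:56360565-56366573, plus strand) it held 150 reads and the loop stood at 2.66 times (2.45 to 2.91). CDK4 (2.68 times, 996 reads), CDK9 (2.98 times, 227 reads) and CDK17 (2.33 times, 125 reads) had the same rise, and CDK18 (9.40 times) and CDK20 (9.15 times) the largest, on 33 and 39 reads. CDK1 (0.397 times), CDK13 (0.369), CDK8 (0.681) and CDK5 (0.981) did not share it, although the highest codon of CDK1 lay 12 codons after the loop's first. Without the highest codon of each loop the median was 1.5 times the mean and 9 of 16 were above it.

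The 20 codons before the loop had a median of 0.728 times the mean and codons 20 to 39 after its first codon 0.564 times, values near the 0.680 of a typical window. Further upstream, the 10 codons from 45 to 36 before the loop had a median of 1.79 times the mean. They were above it in 13 of the 16 CDKs, so a rise of this size was not particular to the loop.

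**Figure D5:**
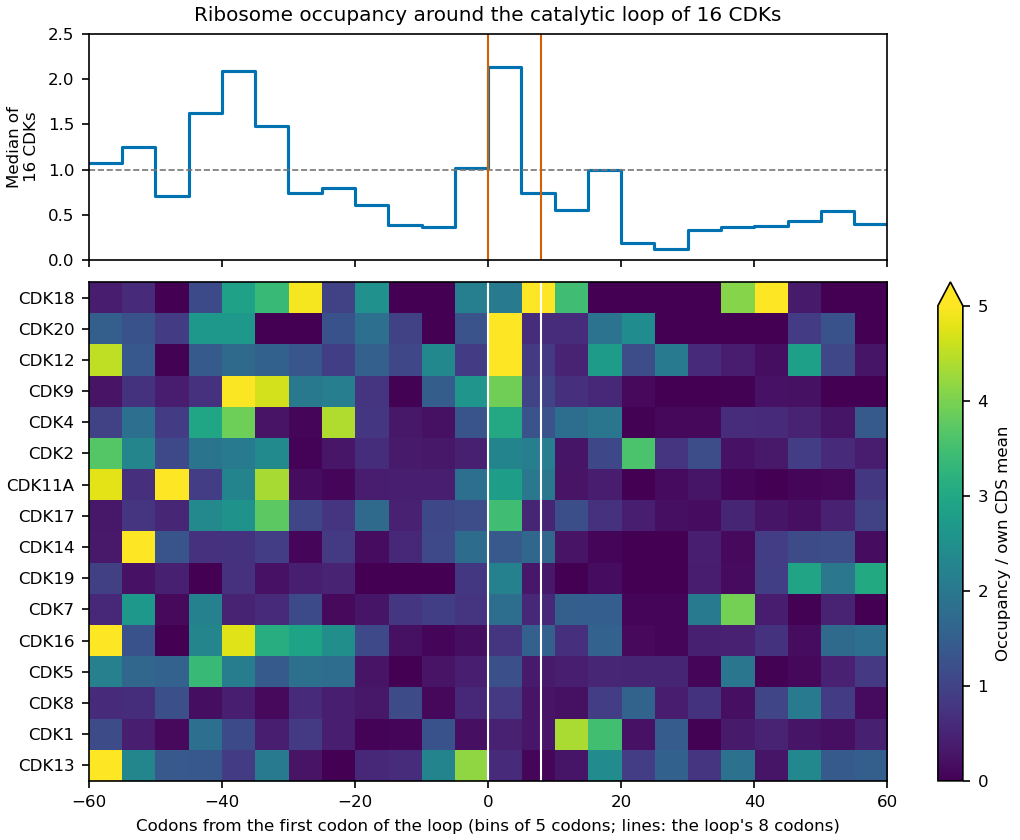
In-frame occupancy of 16 CDKs aligned at the first codon of the catalytic loop, in bins of 5 codons and relative to the CDS mean of each gene; the upper panel gives the median of the 16, the lower panel each CDK, and the lines mark the 8 codons of the loop. The median of the bin at the start of the loop is 2.13 times the mean, and that of the bin from 20 codons after it 0.188 times. The bin from 40 codons before the loop has a median of 2.09 times.

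Few in-frame reads lay in the 5′UTRs. Reads in the other frames are not part of the occupancy lists, so ribosomes there were not counted. The last 17 codons before the start codon, about 50 nt, had a median occupancy of 0.00200 over 33 cyclins and CDKs with 5′UTRs of over 33 codons, close to the 0.00195 of all transcripts, and 9 of the 33 had no read there. Without the 5 codons next to the start codon the median was 0.000312. As a share of the occupancy of the whole transcript, the 5′UTR had a median of 0.857% in the 36 cyclins and CDKs and 0.367% in all transcripts, with 21 of the 36 above the latter. The median 5′UTR length was 78.5 codons in the former and 56 codons in the latter. The highest mean occupancies in the last 17 codons were those of CCNK (0.0430, 16 reads), CDK7 (0.0242, 66 reads) and CDK11B (0.0237, 16 reads). As a share of all in-frame reads, the 5′UTR was largest in CDK10 (11.8%, 49 reads), CDK11B (5.84%), CCNK (4.64%) and CDK16 (4.26%, 94 reads). In 7 genes no in-frame 5′UTR read was found.

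In CCNB1 and CCNG1 a single position held most 5′UTR reads, and in CDK12, CCNK and CCNC the highest position held a smaller share. The windows below show the P-site codon of the highest 5′UTR position in capitals, counted back from the start codon of the matched transcript.
CCNB1: cccgctgagctgCTGcctggtgaagag
CCNG1: taccgctgaggaGCTgcagtctctgtc
CDK12: agggccccagagCTGgagtcggctcca
CCNK: attccatatacaAGAtggccgcagtcg
CCNC: catttgcaatggATTttggataaacaa
In CCNB1 (chr5:68462962-68474072, plus strand) 71 of 126 5′UTR reads lay on a CTG codon 7 codons before the start. All positions in the occupancy lists are in frame with the start codon, so the frame of a peak carries no information. In CDK12 62 of 192 lay on a CTG 121 codons upstream, and in CCNG1 89 of 147 lay 6 codons before the start. In CCNK 40 of 131 lay 36 codons upstream, where an ATG in another frame begins 2 bases after the first base of the P-site codon.

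The 5′UTR reads of CCNC (chr6:99990263-100016701, minus strand) lie in annotated coding sequence. The transcript in the table has a CDS of 199 codons, stop codon included, while the longest annotated CDS of the gene has 284. Of its 122 5′UTR reads, 111 (91.0%) are at codons that are in frame in another annotated CDS of CCNC. In the other matched genes with 5′UTR reads this share was 0, apart from 1 read (1.04%) in CDK17. In CDK9 34 of the 36 matched 5′UTR codons are in frame in another annotated CDS, and not a single read was found there, which allows up to 3 reads beside 3578 in the CDS.

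In the 3′UTR 11 of the 36 genes had no in-frame read, and the sum over all was 103 reads. The highest shares of occupancy were in CDK18 (2.35%, 6 reads), CDK20 (2.34%, 3 reads) and CCNY (0.5%, 7 reads), each too few reads to rank.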

How the data were processed

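RPF and total RNA libraries were made by the authors from the same lysates of HEK293 cells. Adapters and PCR duplicates were removed with cutadapt 1.16 and cd-hit-dup, and RPFs were aligned with Bowtie 1.1.2 to the hg19 transcriptome. Total RNA was aligned with Hisat2 according to the methods (the submitters' processing notes list TopHat2 2.1.1) and counted with HTSeq 0.9.1. The deposited translational efficiency is, for each gene and replicate, a ratio on a linear scale of RPFs over total RNA. No source used here gives its formula. Since same-numbered libraries share a lysate, the pairing is part of each deposited ratio. The deposited occupancy lists (RPFs of 28 to 30 nt, offset 13 nt, divided by TPM) combine the replicates and give 1 value per codon of the most abundant transcript.

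For translational efficiency, log2(value + 0.01) of each gene was tested with limma (version 3.58.1, R 4.3.3) against the median of all values, two-sided, over all 8121 genes without a filter, with Benjamini-Hochberg adjustment at 0.05. Fold changes on this scale understate those of low genes. Values given as folds between 2 genes are 2 to the power of the mean log2 difference within a replicate, taken without the added 0.01. Occupancy values were split into whole reads with a search for 3 steps per transcript (relative tolerance 1e-08), which solved 9442 of 9539 transcripts, while 31 broken over lines were left out. The reads of a replicate could not be tied to its number, and the limit given for a count of 0 covers counting error only. Both procedures were tested on simulated data. Of the 36 transcripts, 34 matched GENCODE 44 on GRCh37 by symbol and CDS length (not CDK10 and CDK11B), and none matched in 5′UTR length. No protein sequences were used.

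The genes, role groups, pairs and lists were chosen with earlier results of these data known. Genes were named by role (cell cycle core, transcriptional branch) and by rank: the 5 highest and 5 lowest translational efficiencies, the 3 largest SDs, and the 3 extremes of each occupancy measure and of the regulators. Other genes, and the sequences shown, were chosen after their values were seen. Alternatives were another pseudocount (0.1), a filter on means under 0.05, each replicate left out, a replicate block, the mean as centre, limma-trend, and other windows and summaries of occupancy. Python 3.11.15, numpy 2.4.6, pandas 2.3.3 and matplotlib 3.10.9 were used.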

Additional observations from a re-analysis of the deposited data

How the results depend on the processing

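The counts of 15 higher and 17 lower cyclins and CDKs were 15 and 17 with the replicate block as well. The pairing of RPFs with total RNA is fixed in each deposited ratio and was not varied. The unchanged counts therefore say nothing about the pairing. Leaving out 1 replicate gave 15 to 15 higher and 17 to 18 lower. For the 31 other pathway genes these ranges were 9 to 9 and 18 to 20. Of 279 alternatives for single genes 276 kept their call. Among single genes, signs changed only where no call was made, as in CDK17 with the mean as centre (-0.10). CCNE2 was called lower without replicate 3 (log2 difference -0.21, limma, adjusted p = 0.0437) and with the mean as centre (-0.30), as was CDK11A with the mean as centre (-0.35), which gave 19 lower. The filter on means under 0.05 removed CDK16, which left 16 lower.

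The medians of occupancy moved more. The CDS median of 0.0471 became 0.0137 with the median over codons and 0.0452 without the highest codon. The log2 ratio of first to last codons of 0.50 became 0.25 with windows of 50 codons and reversed to -0.10 with the median over the codons of a window. The 5′UTR median of 0.00200 became 0.00340 in the last 10 codons and 0.000312 without the 5 codons next to the start. The cause was not tested. Depth limits the occupancy of the 4 genes with the fewest CDS reads (CDK20, CDK18, CDK10 and CCNG2).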
